A study of Homo sapiens with 6 samples.

Results

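Tropomyosins, calponins, transgelins, caldesmon and the myosin regulatory light chain MYL9 bind actin filaments or the motor that pulls on them. They were followed here after EIF3C, a gene for a subunit of the translation initiation factor eIF3, had been stably knocked down in TE-1 cells, and in the parental TE-1 cells. The members were chosen by name: TPM1, TPM2, TPM3, TPM4, MYL9, CALD1, CNN2, CNN3, TAGLN and TAGLN2, 10 genes in all. That choice was made with earlier results of these data known. Each was read on probe sets annotated with exactly 1 gene symbol, and the brightest of these by its mean signal on all 6 arrays stood for the gene. TPM3 matched no such probe set, so its expression is not analysed here. The other 9 members were measured among the 18132 genes with such a probe set, on 51 probe sets in all. Each of the 9 passed the filter on dim signal.

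Total RNA was hybridised to an Affymetrix array, 3 arrays of EIF3C knockdown cells and 3 arrays of parental control cells. TE-1 is a cell line from a human oesophageal squamous cell carcinoma. The knockdown samples come from a single clone and the controls are untreated parental cells, per the labels. Effects of the knockdown, of making the stable line and of picking a clone therefore cannot be told apart. The labels call the replicates biological and do not say whether they were separate cultures, so p-values measure only how much these arrays vary, and that variation may be technical. In such bulk RNA, fewer cells of a type and less RNA per cell cannot be told apart.

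Each value is a log2 signal, so a difference of 1 is a doubling. Knockdown was compared with control by limma across 13599 genes, with p-values adjusted over all of them by Benjamini-Hochberg, and a gene was called at an adjusted p under 0.05. The knockdown was visible on the arrays. The brightest probe set shared by EIF3C and its near-identical copy EIF3CL read 8.42, 8.41 and 8.49 in knockdown cells, against 10.69, 10.60 and 10.56 in control cells, and it fell by 2.18 on the log2 scale (adjusted p = 6.58e-15 over all human probe sets). As a check of the labelled cell type, the epithelial markers KRT8, KRT18, EPCAM and CDH1 had mean signals between 11.2 and 13.6 in both groups. The basal squamous keratins KRT5 and KRT14 had mean signals between 5.67 and 6.09 in both groups. From the same list of squamous epithelial markers, KRT4, LY6D and SOX2 had mean signals between 5.52 and 6.42, and KRT13 was too dim for the gene fit. Its other tested genes, S100A2, DSG3, PERP, JUP, SFN and KRT19, had mean signals between 6.82 and 12.67. Signals of different probe sets do not rank these genes, and a low one is not read as absence.

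Tropomyosins are rod-shaped coiled-coil proteins that lie along actin filaments and set which myosins and other proteins may bind there, and vertebrates make many forms of them from a small gene family. Caldesmon and calponins bind actin and restrain the myosin motor, transgelins are smaller relatives of calponins that bundle actin, and phosphorylation of the regulatory light chain switches non-muscle and smooth muscle myosin on. Many of these genes are known in smooth muscle and fibroblasts as targets of serum response factor (SRF), which binds a DNA motif called the CArG box. Tropomyosin levels are also known to differ between normal epithelial cells and carcinoma cells.

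Of the 9 measured members, 5 were called higher in knockdown cells and 3 lower, 8 in all, where 66.5% of all genes tested were called. That many calls over all genes leave the members' count with little to say about them. The knockdown and control arrays did not overlap for 8 members, beside 70.3% of all genes. Changes of at least 2-fold were found in 4 members, 3 higher and 1 lower, while 4.82% of all genes were called with a change of that size. The median change of the members was 0.10 on the log2 scale, beside -0.03 over all genes tested, and the median size of change without its sign was 0.56, beside 0.23. Because the members were chosen with earlier results of these data known, these contrasts with all genes only describe the list and test nothing. The largest rises were those of TPM2, TPM4 and CNN3, and the largest falls those of CNN2 and TAGLN2.

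The sequences just upstream of the 4 members that changed at least 2-fold are shown because CArG boxes lie before 1 that rose and 1 that fell. RefSeq promoter windows of GRCh38.p14 reach from 250 bases before each annotated start to 50 after it. Of the 10 members, 8 had 18 such windows between them, TPM3 among them. MYL9 and TAGLN had no window, so their promoters were not searched. The windows were searched on both strands for the CArG box (CC, then 6 bases that are each A or T, then GG), the TEAD motif GGAATG and the AP-1 motif TGACTCA, which do not overlap one another in these windows. Below, the 250 bases before 1 start of each gene are given 5′ to 3′ on the strand of the gene, with motif matches in capitals. TPM4 lies on the plus strand at chr19:16067288-16067537, CNN2 on the plus strand at chr19:1026358-1026607, TPM2 on the minus strand at chr9:35689926-35690175 and CNN3 on the minus strand at chr1:94925770-94926019.
TPM4: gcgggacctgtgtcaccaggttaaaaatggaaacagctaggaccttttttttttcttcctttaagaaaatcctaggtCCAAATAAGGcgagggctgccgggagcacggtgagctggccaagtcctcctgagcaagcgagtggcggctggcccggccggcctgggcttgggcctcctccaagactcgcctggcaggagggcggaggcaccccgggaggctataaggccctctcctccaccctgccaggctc
CNN2: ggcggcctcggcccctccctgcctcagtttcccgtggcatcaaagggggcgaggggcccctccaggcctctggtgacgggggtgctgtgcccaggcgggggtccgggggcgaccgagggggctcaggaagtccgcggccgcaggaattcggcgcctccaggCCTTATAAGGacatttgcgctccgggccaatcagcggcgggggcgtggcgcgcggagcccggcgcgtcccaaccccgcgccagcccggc
TPM2: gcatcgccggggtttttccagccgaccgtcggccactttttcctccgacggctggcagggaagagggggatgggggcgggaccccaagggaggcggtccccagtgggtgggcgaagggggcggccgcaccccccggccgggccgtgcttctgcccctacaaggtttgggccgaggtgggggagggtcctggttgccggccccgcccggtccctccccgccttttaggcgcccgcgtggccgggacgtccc
CNN3: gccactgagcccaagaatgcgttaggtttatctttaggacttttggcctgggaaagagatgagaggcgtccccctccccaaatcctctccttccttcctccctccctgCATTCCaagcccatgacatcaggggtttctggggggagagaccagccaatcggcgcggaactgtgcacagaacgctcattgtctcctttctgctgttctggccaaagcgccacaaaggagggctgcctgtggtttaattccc
The CArG box of TPM4 is CCAAATAAGG, which begins 173 bases before 1 of its 3 annotated starts, and that of CNN2 is CCTTATAAGG, which begins 89 bases before its only one. A CArG box was found for 2 of the 8 members with a window, beside 1.6% of all 27305 genes with one, and in 2 of the 18 windows of members, beside 1.29% of all 35116 windows of the same length. For a gene with several windows, one with a motif match was printed where there was one, otherwise the first. Neither window of TPM2 held any of the 3 motifs, and nor did the other windows of TPM4 and CNN3. Which start these cells use was not analysed. The TEAD motif stood in 1 of 2 windows of CNN3, printed above, and in 2 of 4 windows of CALD1, and 14% of all windows held it. The AP-1 motif stood in 2 of 3 windows of TAGLN2, and 4.95% of all windows held it. A match describes letters in a window and is no evidence of binding.

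Among the tropomyosins, TPM2 and TPM4 rose and TPM1 hardly moved. TPM2, or beta-tropomyosin, read 10.54, 10.53 and 10.50 in knockdown cells, against 8.63, 8.57 and 8.47 in control cells. The lowest knockdown array lay far above the highest control array, and the gap was much wider than the spread within either group. TPM2 averaged 10.52 ± 0.02 in knockdown cells and 8.56 ± 0.08 in control cells (SD, n = 3 each), a 3.90-fold difference (log2 change 1.96, SE 0.04, adjusted p = 2.2e-16). With its 4 probe sets averaged, the log2 change was 1.33. All 4 of its probe sets were called higher, where 48.2% of all human probe sets were called and 24.1% were called higher. The second bright probe set rose by 2.08, and 2 dim ones, with control means of 4.53 and 4.47, rose by 0.59 and 0.69.

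TPM4, a tropomyosin found in many non-muscle cells, read 10.32, 10.16 and 10.30 in knockdown cells, against 9.08, 9.07 and 9.06 in control cells. The control arrays were almost identical and the groups did not overlap. The difference was 2.28-fold (log2 change 1.19, SE 0.04, adjusted p = 5.98e-14), and the 5 probe sets of TPM4 rose by 0.97 to 1.19, every one of them called.

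TPM1, or alpha-tropomyosin, read 11.26, 11.28 and 11.25 in knockdown cells, against 11.19, 11.16 and 11.14 in control cells. The groups did not overlap, yet the change was 0.10 on the log2 scale (SE 0.02, adjusted p = 0.000897), which lies inside the range of the 85 non-human control probe sets on the same arrays, -0.22 to 0.20. Of its 9 probe sets 5 were called higher, by 0.08 to 0.20, and the other 4 were not called. With the probe sets of a gene averaged, TPM1 no longer passed (log2 change 0.067, adjusted p = 0.0667).

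**Figure D1:**
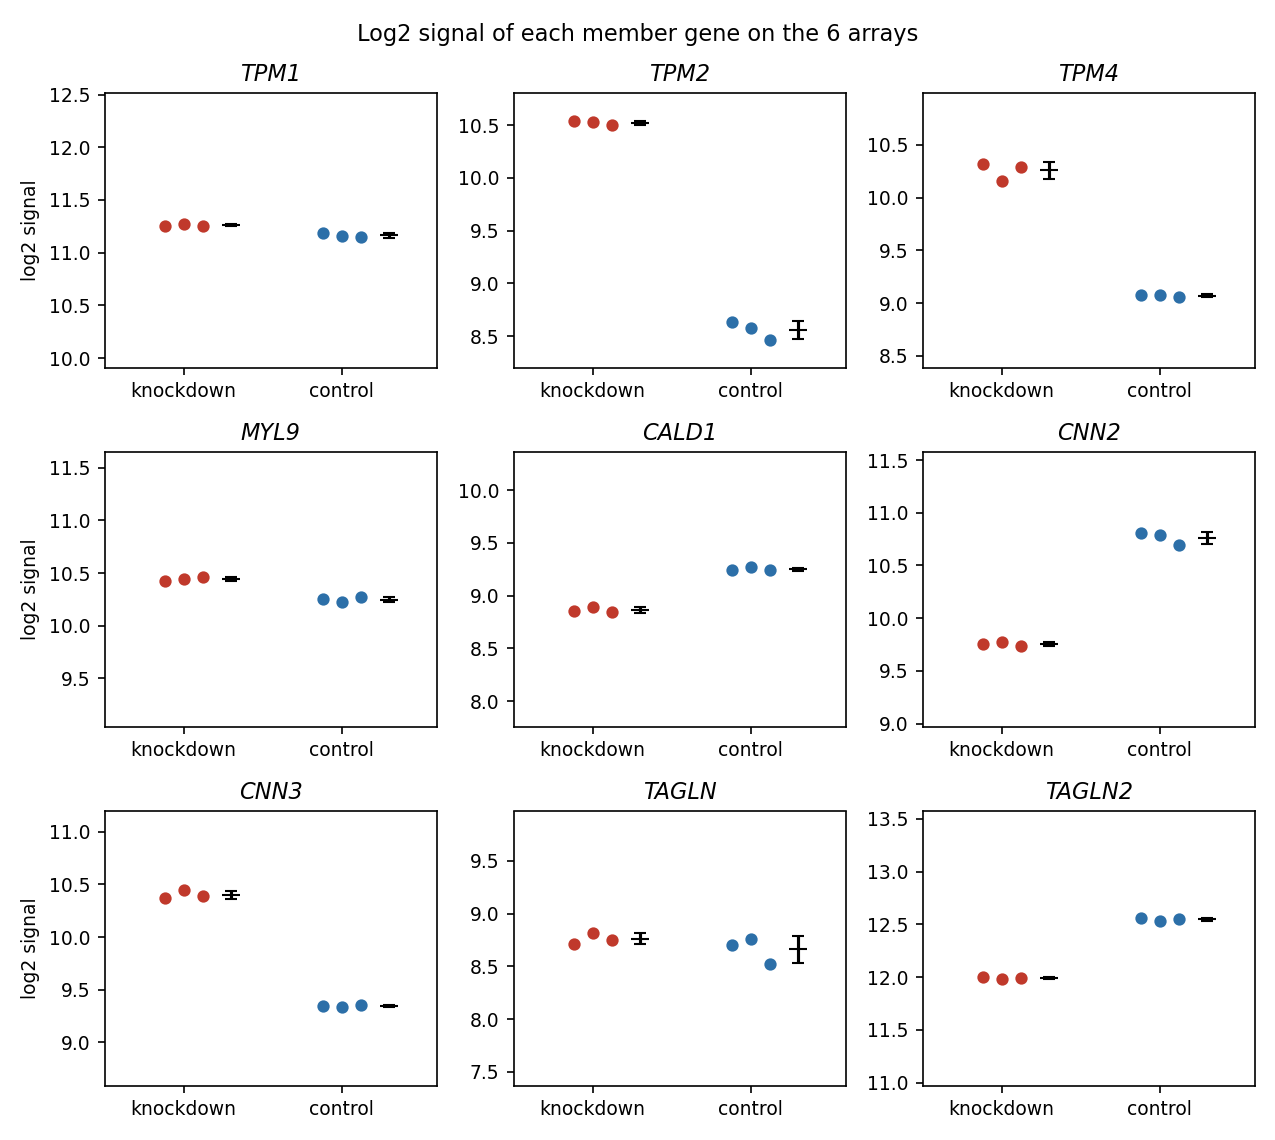
Log2 signal (vertical axis, a range of 2.6 log2 units in each panel) of the 9 measured genes on the 3 knockdown arrays (red) and the 3 control arrays (blue), each on its brightest probe set, with the mean and SD in black. TPM2, TPM4 and CNN3 lie higher in knockdown cells and CNN2 and TAGLN2 lower, with no overlap, while TAGLN overlaps.

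The calponins moved in opposite directions. CNN3, the acidic calponin of non-muscle cells, read 10.37, 10.45 and 10.39 in knockdown cells, against 9.35, 9.34 and 9.36 in control cells. It rose 2.07-fold (log2 change 1.05, SE 0.03, adjusted p = 1.59e-14), on the 1 probe set it has here, so no further probe set checks it. CNN2, the calponin found in both smooth muscle and non-muscle cells, read 9.75, 9.77 and 9.74 in knockdown cells, against 10.81, 10.79 and 10.69 in control cells. Every knockdown array lay below every control array, and CNN2 fell to 49.8% of the control level (log2 change -1.01, SE 0.03, adjusted p = 4.3e-14). All 9 of its probe sets were called lower, with changes from -1.10 to -0.87, beside 24.1% of all human probe sets called lower.

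The transgelins differed as well. TAGLN2, the form common in epithelial and blood cells, read 11.999, 11.983 and 11.989 in knockdown cells, against 12.558, 12.535 and 12.553 in control cells. The 3 arrays of each group were nearly the same and the groups stood well apart. TAGLN2 fell to 67.9% of the control level (log2 change -0.56, SE 0.02, adjusted p = 6.28e-14). Its 4 bright probe sets changed by -0.57 to -0.54 and were called, and a dim one, with a control mean of 5.01, changed by -0.17 and was not called.

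TAGLN, also called SM22-alpha and widely used as a marker of smooth muscle, read 8.72, 8.82 and 8.75 in knockdown cells, against 8.71, 8.76 and 8.52 in control cells. The groups overlapped, with control replicate 3 below the rest. The change of 0.10 was not called (95% interval -0.01 to 0.21, adjusted p = 0.114), and it was called without control replicate 2 (log2 change 0.15, adjusted p = 0.0266). Without control replicate 3 the change was 0.03. The other 5 probe sets of TAGLN were each called higher, by 0.14 to 0.29, and the mean of its probe sets was called too (log2 change 0.21, adjusted p = 0.000159).

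MYL9 encodes a regulatory light chain of smooth muscle and non-muscle myosin II. It read 10.43, 10.45 and 10.47 in knockdown cells, against 10.25, 10.22 and 10.27 in control cells. The groups did not overlap and the rise was small, 1.15-fold (log2 change 0.20, SE 0.03, adjusted p = 4.72e-06), about the size of the largest rise of a non-human control probe set. Both of its probe sets rose alike, by 0.20 and 0.19, and both are of the kind (suffix x) whose probes may also match other transcripts. The brightest probe sets of TPM2 and CNN2 are of that kind too. The suffix a probe sets of TPM2 and CNN2 changed by 2.08 and -1.10.

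CALD1 encodes caldesmon, which ties actin, tropomyosin and myosin together and inhibits the motor. On its brightest probe set it read 8.85, 8.89 and 8.85 in knockdown cells, against 9.24, 9.27 and 9.24 in control cells, a fall to 76.4% of the control level (log2 change -0.39, SE 0.03, adjusted p = 2.15e-08). The second brightest probe set read 8.26, 8.32 and 8.11 in knockdown cells, against 8.49, 8.71 and 8.73 in control cells, and was called lower too, with a change of -0.41. The other 8 probe sets changed by -0.08 to 0.17 and none was called. The fall therefore rests on 2 of 10 probe sets, and with the probe sets averaged it was not called (log2 change -0.054, adjusted p = 0.297). Which CALD1 transcripts each probe set reads was not analysed here.

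**Figure D2:**
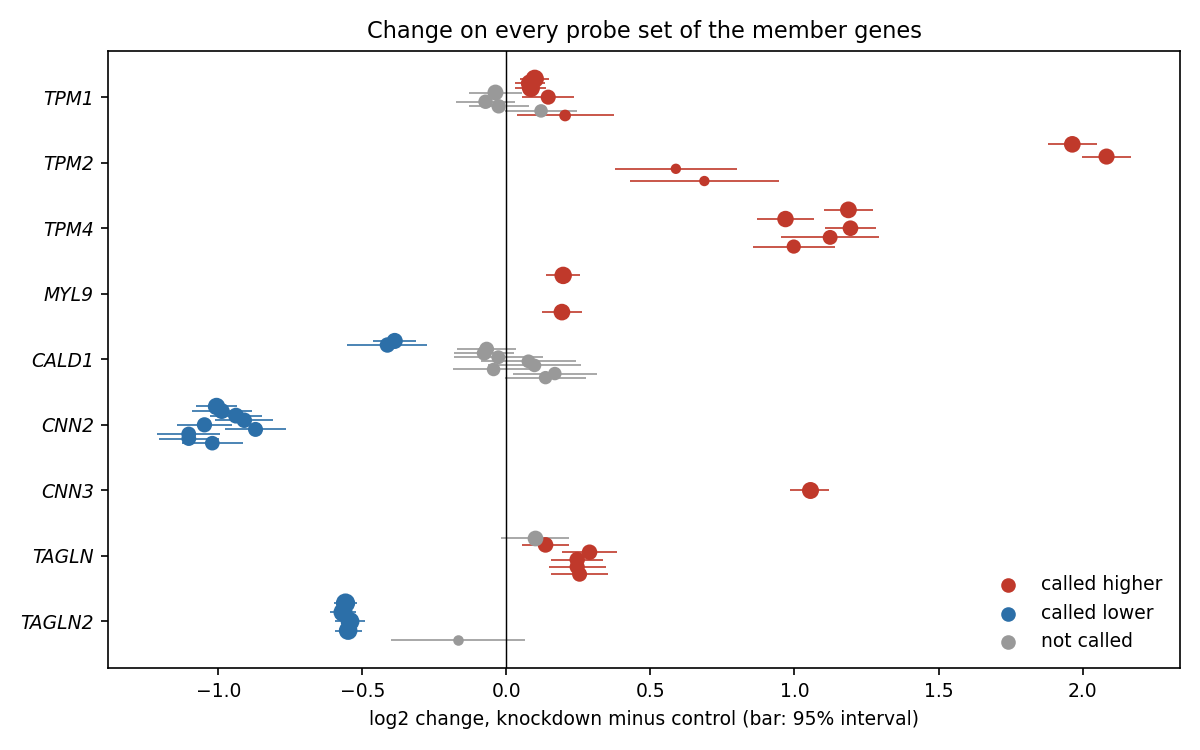
Change of each of the 51 probe sets (horizontal axis, log2, knockdown minus control, with its 95% interval), grouped by gene, with the brightest probe set of a gene at the top of its row and larger points for brighter ones. For TPM2, TPM4, CNN2, MYL9, TAGLN and TAGLN2 all probe sets moved one way, and those of CALD1 and TPM1 were mixed. Of the 51 probe sets, 22 were called higher and 15 lower. Of all human probe sets, 24.1% were called higher and 24.1% lower.

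Differences between related genes on the same array remove whatever the arrays share. For each of 3 pairs the difference of log2 signals was taken on each array, and only its change between groups was read, because levels of different probe sets cannot be set against each other. TPM2 minus TPM1 was -0.72, -0.75 and -0.75 in knockdown cells, against -2.56, -2.58 and -2.68 in control cells, a change of 1.87 that equals a 3.64-fold shift of the ratio. CNN3 minus CNN2 was 0.61, 0.67 and 0.65 in knockdown cells, against -1.45, -1.45 and -1.33 in control cells, a change of 2.06 or 4.16-fold. This calponin shift exceeded the change of either gene alone, since 1 rose and the other fell. TAGLN minus TAGLN2 was -3.28, -3.17 and -3.24 in knockdown cells, against -3.85, -3.77 and -4.04 in control cells, a change of 0.66 or 1.58-fold. In each pair all 3 knockdown arrays lay above all 3 control arrays. No such share was computed over other pairs of genes, but the groups did not overlap for 70.3% of all single genes. The pairs were formed from members chosen with earlier results of these data known, so this separation only describes them. The exact two-sided permutation test gave p = 0.1 for every pair, also after adjustment over the 3 pairs, which is the smallest p that 3 arrays against 3 allow, so this test cannot reach the threshold.

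**Figure D3:**
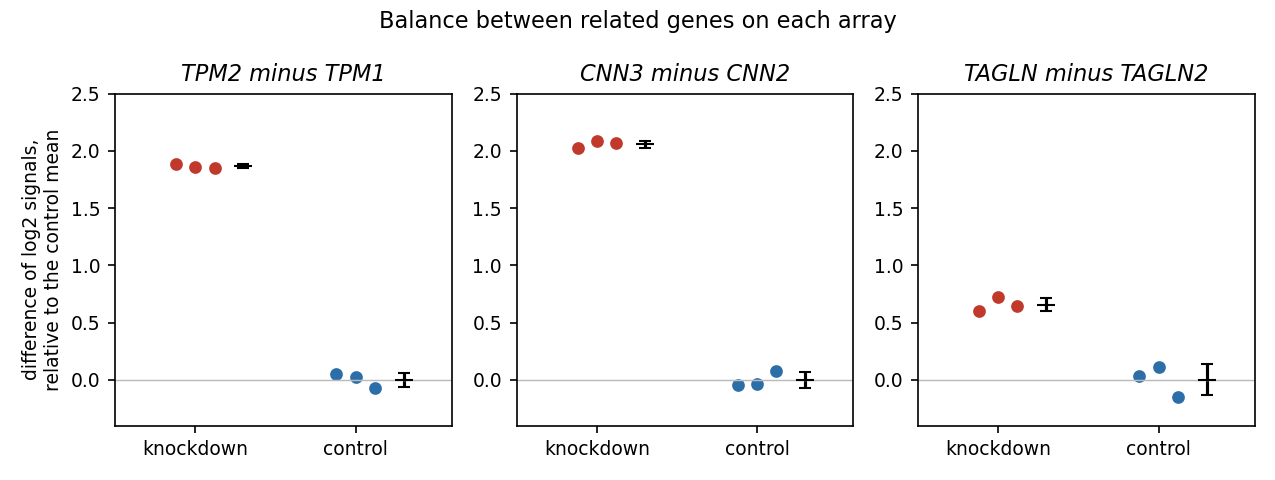
Difference of log2 signals between related genes on each array (vertical axis), set to 0 at the mean of the control arrays, for knockdown (red) and control (blue) arrays with mean and SD in black. The shift is 1.87 for TPM2 minus TPM1, 2.06 for CNN3 minus CNN2 and 0.66 for TAGLN minus TAGLN2.

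The genes whose pattern over the 6 arrays was most like that of TPM2 were found by the root mean squared difference of log2 signals, each gene centred on its own control mean. They were ELOVL6 (0.058), HRH1 (0.061), FGF2 (0.063), GPAM (0.065) and CDCA7L (0.072). ELOVL6 elongates fatty acids, HRH1 is a histamine receptor, FGF2 a fibroblast growth factor and GPAM an enzyme of glycerolipid synthesis. Their changes lay between 1.91 and 2.01 on the log2 scale. ELOVL6 had a control mean of 4.53, below the filter limit of 4.635, so it was tested only because its knockdown signal was higher, and the size of its change is uncertain. With 2 groups of 3 arrays, this likeness mostly reflects an equal size of change.

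Genes that work with the members were described by lists, against 32.4% of all genes called higher and 34.1% called lower. These lists too were chosen with earlier results of these data known. In the list of SRF, its cofactors and its target genes, 13 of 21 tested genes rose and 5 fell, with a median change of 0.38, beside -0.03 over all genes. The immediate-early factors EGR1 and FOS rose by 1.19 and 1.11 (adjusted p = 7.92e-14 and 5.42e-11), while ELK3, an ETS-family SRF cofactor, fell by 1.54 and FILIP1L fell by 2.40 (adjusted p = 3.23e-14 and 1.04e-13). SRF itself, named after its value was seen, averaged 7.57 ± 0.11 in knockdown cells and 6.77 ± 0.04 in control cells (SD, n = 3 each) and rose by 0.80 (adjusted p = 3.93e-09). The matricellular genes CCN1 and CCN2, named in the same way, rose by 1.02 and 0.91, and the SRF coactivator gene MRTFB fell by 0.44. With probe sets averaged, SRF rose by 0.54, ELK3 fell by 0.97, FILIP1L fell by 1.25 and MRTFB did not pass (log2 change -0.034, adjusted p = 0.635). FILIP1L had a knockdown mean of 4.82, near the filter limit of 4.635, where a fold is uncertain.

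In the list of the actomyosin motor and its control, 10 of 22 tested genes rose and 6 fell, and the median change was 0.03. PPP1R14B, an inhibitor of myosin phosphatase, rose by 0.60 (adjusted p = 3.6e-11), the citron kinase gene CIT by 0.58 (5.78e-09) and RND3, an antagonist of RHOA signalling, by 0.49 (4.1e-10). PPP1R12A, the targeting subunit of myosin phosphatase, fell by 0.51 (5.48e-09), and fell by 0.26 with its probe sets averaged. None of the 22 changed at least 2-fold.

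Stress fibre crosslinkers and anchors were split, with 7 of 18 higher and 7 lower and a median of 0.01. The alpha-actinin gene ACTN1 rose by 0.61 (adjusted p = 6.74e-13). SYNPO, or synaptopodin, fell by 1.10 (6.14e-12), LASP1 fell by 0.88 (1.11e-14) and PDLIM5 fell by 0.57 (1.08e-10). With probe sets averaged, SYNPO fell by 0.29 and LASP1 by 0.59. PDLIM5, with 2 probe sets called higher and 2 lower, then turned to 0.091 (adjusted p = 0.0676). With probe sets averaged, 9 genes of this list were higher and 3 lower, so the even split depends on the choice of probe set.

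Among genes of actin filament turnover and end capping, 7 of 19 rose and 9 fell, with a median of -0.07. TMOD2, a tropomodulin that caps tropomyosin-coated filaments at their slow-growing end, rose by 0.83 (adjusted p = 1.27e-05), although its control mean of 4.22 was below the lowest mean kept. CFL2, a cofilin that severs filaments, rose by 0.69 (6.86e-13), and by 0.43 with its probe sets averaged. The filament-severing gelsolin gene GSN fell by 0.80 (1.86e-12) and the actin-monomer binder TMSB4X fell by 0.58 (2.14e-12).

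Markers of smooth muscle and fibroblasts were measured because several members are also markers of those cells. Of 18 listed markers, 12 were tested, 3 rose and 3 fell, with a median of -0.08. The other 6, COL3A1, DCN, LUM, PDGFRA, POSTN and THY1, were too dim in both groups for the gene fit. In the probe set fit, which has no filter, COL3A1 and LUM were called lower by 0.25 and 0.19 (adjusted p = 0.0354 and 0.0473). Their group means lay between 2.41 and 3.39, where a change is uncertain, and the rest were not called. ACTA2, smooth muscle actin, rose by 0.51 (6.29 ± 0.19 in knockdown cells and 5.78 ± 0.07 in control cells, SD, n = 3 each, adjusted p = 8.16e-05) on 1 of its 3 probe sets, and SMTN by 0.35. The intermediate filament gene SYNM fell by 0.49, and fell by 0.28 with its probe sets averaged, and SYNPO2 fell by 0.42 on 1 of 9 probe sets. With probe sets averaged, ACTA2, SYNPO2 and TMOD2 were too dim to be tested. DES, the third marker called lower, fell by 0.25 (adjusted p = 0.0126) on 1 of its 2 probe sets. RGS5, the third marker called higher, rose by 0.20 on its brightest probe set. That was the smallest change among its 4 probe sets, of which 3 were called higher. The markers CNN1, MYH11, LMOD1, ACTG2, KCNMB1 and PDGFRB, with means between 4.63 and 6.34 in either group, were not called. The log2 of the summed signal of the 12 genes was 10.02 to 10.05 in knockdown cells and 10.11 to 10.14 in control cells. The brightest genes of a list weigh most in such a sum, and the part of these cell types in the changes of the members was not tested.

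Of 15 tested genes of the squamous epithelial marker list, 5 rose and 5 fell, and their median change was 0.05. Among those that rose were the epithelial markers KRT8, KRT18, EPCAM and CDH1, by 0.12 to 0.26. The smaller falls were those of JUP and SOX2, by 0.23 and 0.25. S100A2, a calcium-binding protein of basal keratinocytes, rose by 0.91 (adjusted p = 1.81e-10). The desmosomal cadherin gene DSG3 fell by 0.70 (7.13e-10), KRT19 fell by 0.55 (6.22e-14) and PERP fell by 0.47 (4.81e-09). Their part in the changes of the members was not tested.

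**Figure D4:**
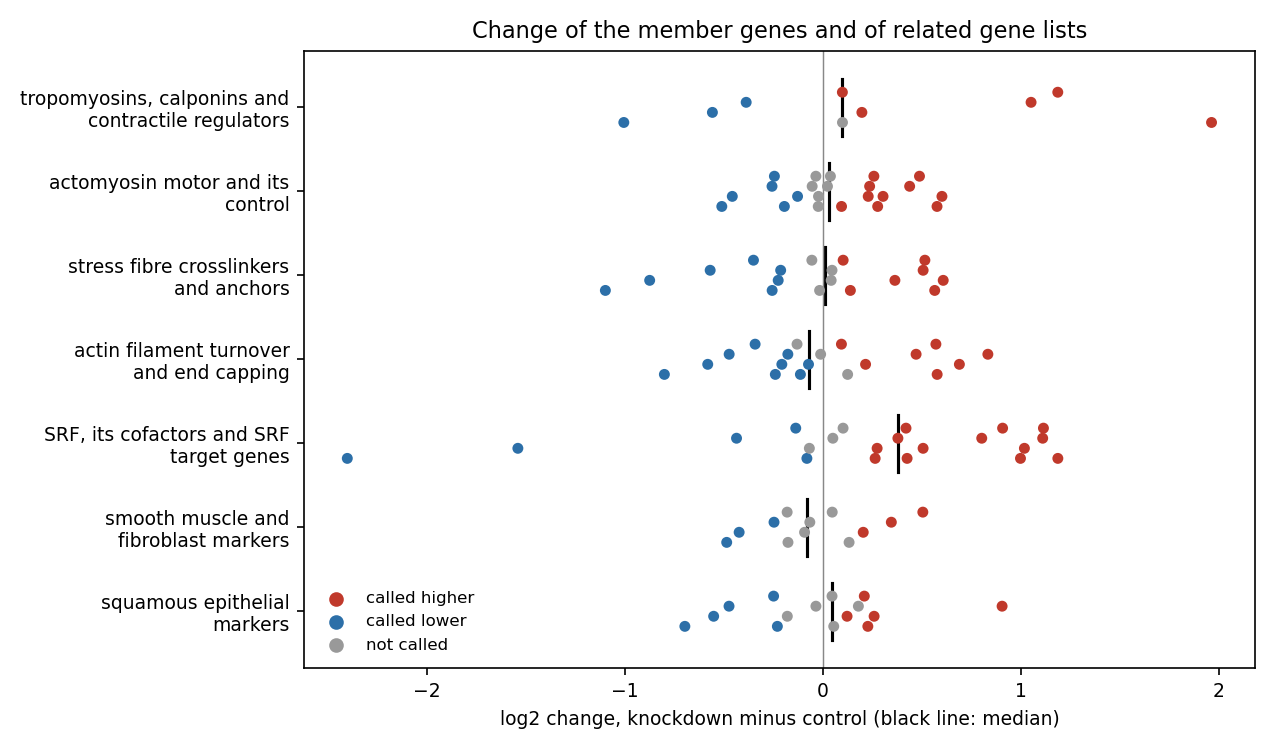
Change of the 9 measured members and of the tested genes of 6 related lists (horizontal axis, log2, knockdown minus control), one point per gene, coloured by call, with the median of each list in black. The medians are 0.10 for the members and 0.38 for the SRF list, and lie between -0.08 and 0.05 for the other lists.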

How the data were processed

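The values analysed are log2 signals deposited by the authors for 49395 probe sets on each of 6 arrays. The submitters' processing notes list MAS5 as a tool. How background, summarisation and logarithm were handled is not given in the sources used here, and the log2 scale was inferred from values of 1.95 to 14.1. Array medians lay between 6.09 and 6.11, so the arrays were taken as scaled to each other and were not normalized again. Such scaling removes a change shared by all genes. Correlations across probe sets were 0.998 within groups and 0.982 to 0.985 between them. Without detection calls, low signal was never read as absence. Precision is limited by having 3 arrays a group.

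Probe sets with exactly 1 symbol in the platform annotation (44988) were used, 1 per gene by the highest mean. The dimmest 25% of genes were left out. Group was the only term in limma 3.58.1 (R 4.3.3), with lmFit, eBayes with an intensity trend and Benjamini-Hochberg adjustment over 13599 genes. A second fit covered all 49293 human probe sets without a filter. On data simulated with the spread of these 13599 genes, 47.4% of changes of 0.25, 88.2% of 0.5 and 99.4% of 1 on the log2 scale were recovered. Far fewer genes were changed in the simulation than were called here, which makes its threshold stricter. These shares therefore do not give the recovery in the real comparison. Promoter sequences came from RefSeq.

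The members and gene lists were chosen with earlier results of these data known. Genes named were all members, EIF3C, up to 4 called genes with the largest change in each list, the 5 genes most like TPM2, and a few said to be named after their values were seen. Further markers fall outside that rule and were named from the marker lists after their values were seen. From the squamous list they were KRT4, KRT5, KRT8, KRT13, KRT14, KRT18, EPCAM, CDH1, LY6D, SOX2, SFN and JUP. From the smooth muscle and fibroblast list they were CNN1, MYH11, LMOD1, ACTG2, KCNMB1, PDGFRB, DES, RGS5 and the dim markers. The alternatives were no filter, a 50% filter, quantile normalization, median centring, averaged probe sets, no intensity trend, robust eBayes, a block for the replicate number, array weights, and leaving out 1 array at a time.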

Additional observations from a re-analysis of the deposited data

How the results depend on the processing

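Over these alternatives the counts of members called were 5 or 6 higher and 2 or 3 lower, and those of their probe sets 19 to 25 higher and 15 lower. TPM2, TPM4, MYL9, CNN2, CNN3 and TAGLN2 kept their direction and their call under all 15 alternatives, with adjusted p of at most 0.00147. Averaging a gene's probe sets lowered the change of TPM2 to 1.33 on the log2 scale and ended the calls of TPM1 and CALD1. It also gave 9 higher and 3 lower stress fibre genes, 13 higher and 2 lower SRF list genes, and 2 higher and 1 lower smooth muscle markers, and PDLIM5 turned to 0.091. With a 50% filter, 1 smooth muscle marker was higher. With 1 array left out in turn, the change of TPM2 minus TPM1 was 1.83 to 1.89, that of CNN3 minus CNN2 2.04 to 2.10, and that of TAGLN minus TAGLN2 0.58 to 0.71. Probe sets averaged gave 1.26, 2.05 and 0.69 for these pairs. Same-numbered knockdown and control arrays correlated at 0.0765, 0.129 and 0.227 in their deviations from the group means. For the same knockdown arrays, the highest correlations with a control array of another number were lower, at -0.0145, 0.105 and -0.118. The labels do not say that the numbers are pairs, and the main fit did not treat them as pairs. The fit with the replicate number as a block called 5 members higher and 3 lower, with 9307 genes called instead of 9037, and an exact sign-flip permutation test on the paired differences of related genes gave p = 0.25, the smallest that 3 pairs allow. Changes of probe sets near the filter limit, such as those of FILIP1L and TMOD2, are the least certain in size.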

Other observations

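Beyond the genes named by rule, the genes of actin itself and of partners of tropomyosin and MYL9 were chosen after their values were seen. ACTG1, cytoplasmic gamma-actin, averaged 12.95 ± 0.004 in knockdown cells and 12.37 ± 0.02 in control cells (SD, n = 3 each), and rose by 0.58 on the log2 scale (adjusted p = 2.42e-14), with all 5 of its probe sets called higher. ACTB, cytoplasmic beta-actin and a common reference gene, rose by 0.22 (adjusted p = 3.56e-09) on 1 of 3 probe sets, little more than the largest rise of a non-human control, and by 0.092 with its probe sets averaged. TMOD3, the widely expressed tropomodulin, rose by 0.57 (adjusted p = 3e-06) on both of its probe sets. Of the close relatives of MYL9, MYL12B fell by 0.19 (adjusted p = 9.85e-07) on its 1 probe set, inside the range of the non-human controls of -0.22 to 0.20, while MYL12A changed by 0.04 (adjusted p = 0.108) and was called, at 0.06, only without control replicate 3 and, at 0.05, with array weights among the alternatives run.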
